A study of Homo sapiens with 44 samples.

Results

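FKBP5 and 9 other genes of the chaperone machinery that holds steroid receptors ready for hormone were followed in xenografts of the established human cell line VCaP, which derives from prostate cancer and has a TMPRSS2-ERG fusion. The 10 genes were chosen by name (FKBP5, FKBP4, HSP90AA1, HSP90AB1, PTGES3, STIP1, HSPA8, DNAJA1, DNAJB1 and HSPA1A), and all 10 are among the 23368 genes of the count table and among the 13520 that passed the filter on low counts. VCaP cells of passage 61 grew in athymic nude mice (HSD:Athymic Nude–Foxn1nu), which lack T cells. Every mouse, those given vehicle included, was castrated, and dosing started once serum PSA stood again where it had been before castration, so each arm holds castration-resistant tumors of 1 cell line. The vehicle arm had 15 tumors, the enzalutamide arm 14 and the ARN-509 arm 15, with vehicle or 20 mg/kg/day of a drug given by gavage for 4 weeks. Libraries and mice are equal in number in each arm, and 1 library is read here as 1 tumor, with the mouse as replicate.

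A steroid receptor without hormone is handed along a chaperone line. The HSP70 protein HSPA8 and its J-domain partners bind it first, STIP1 (also called HOP) bridges HSP70 to HSP90, and the mature complex holds an HSP90 dimer, the co-chaperone PTGES3 (p23) and an immunophilin, FKBP5 (FKBP51) or FKBP4 (FKBP52). FKBP4 is known as a positive regulator of several steroid receptors, whereas FKBP5 lowers the hormone affinity of the glucocorticoid receptor and is itself a well-known target gene of androgen, glucocorticoid and progestin. Many chaperone genes are induced by heat shock factor 1 through heat shock elements, which are alternating copies of the letters GAA and TTC. Enzalutamide and ARN-509, which is also known as apalutamide, are related antiandrogens that block the action of androgen. Apalutamide carries a spiro-cyclobutane where enzalutamide has a pair of methyl groups, and a pyridine in place of a benzene ring.

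Sequence near the start sites is shown first, because FKBP5, like PTGES3, differs in it from most of the other genes. Windows from 250 bases before to 50 bases after each RefSeq start (GRCh38.p14) were searched on both strands for TTCNNGAANNTTC or GAANNTTCNNGAA, a heat shock element of 3 units, and 9 of the 10 genes were in the table. FKBP4 was not. The 3-unit element stood in at least 1 window of 4 of the 9 genes (HSP90AA1, HSP90AB1, HSPA8 and DNAJA1), against 0.608% of all 27305 genes and 0.49% of all 35116 windows. The 2-unit forms TTCNNGAA and GAANNTTC, which overlap the 3-unit element, stood in 7 of the 9 genes, the others being DNAJB1, HSPA1A and STIP1, against 16.2% of all genes and 13.5% of windows. Neither window of FKBP5 and not that of PTGES3 held either form. The 5 stretches below carry matches in capitals upstream of the start, and the whole 250 bases before the FKBP5 start at chr6:35688916-35689165 (minus strand, 74.8% G or C) are shown because neither form occurs there. The stretches lie at chr14:102087095-102087142 (HSP90AA1, minus strand), chr6:44247821-44247853 (HSP90AB1, plus), chr11:123062169-123062201 (HSPA8, minus), chr19:14518427-14518484 (DNAJB1, minus) and chr6:31815427-31815454 (HSPA1A, plus).
HSP90AA1: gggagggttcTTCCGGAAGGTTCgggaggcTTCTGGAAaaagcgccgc
HSP90AB1: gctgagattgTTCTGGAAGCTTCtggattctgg
HSPA8: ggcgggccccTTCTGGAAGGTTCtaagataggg
DNAJB1: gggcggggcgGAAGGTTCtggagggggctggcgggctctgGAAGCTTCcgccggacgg
HSPA1A: gaaaaccctgGAATATTCccgacctggc
FKBP5: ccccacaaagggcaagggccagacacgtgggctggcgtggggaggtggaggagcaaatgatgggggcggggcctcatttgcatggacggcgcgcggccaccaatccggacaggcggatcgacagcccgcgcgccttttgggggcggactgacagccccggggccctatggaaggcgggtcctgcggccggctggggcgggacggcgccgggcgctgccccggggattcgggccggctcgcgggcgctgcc

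HSP90AA1 has a 3-unit element and, further on, a separate 2-unit one. HSP90AB1 and HSPA8 each hold 2 elements of 3 units in their windows, of which the one nearer the start is shown, and that of DNAJA1 lies after its start, at bases 4 to 16. The only 2-unit match of STIP1 also lies after its start, at bases 14 to 21. The androgen response element GNACANNNTGTNC stood in 0.39% of all windows and in 0 of the 9 genes. One arm of it, AGAACA or TGTTCT, stood in 14.8% of windows, among them the first window of FKBP5 (chr6:35728534-35728833) and the third of HSP90AB1. In FKBP5 this match lies after the start, at bases 1 to 6. A match is a run of letters, not a measured binding site, and these windows hold no distal or intronic elements. Whether such matches go with the levels and correlations below was not tested.

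The libraries of the vehicle arm held 4.19 to 25.8 M counts (M is the prefix mega) (median 5.71), those of the ARN-509 arm 3.38 to 30.1 (median 7.49) and 13 of the enzalutamide arm 4.72 to 16.9 (median 8.62). Enzalutamide replicate 4 held 80142 counts, 3 of them of FKBP5 and 0 of HSPA1A, and was left out of every result unless stated. The tumor cell markers KLK3, KLK2, HOXB13, FOLH1, KRT8, KRT18, EPCAM and ERG had counts in all 43 other libraries. Their summed level was 5714 to 8612 CPM, read counts scaled to a common library size, in vehicle tumors, 6068 to 8535 under enzalutamide and 5523 to 7305 under ARN-509. Summed fibroblast markers (6 genes) were at most 18.0 CPM, leukocyte markers (5) at most 11.6 and erythrocyte markers (3) at most 1.60 CPM in any library. The median sum of 3 basal epithelium markers, mostly KRT14, was 5.78 CPM in vehicle tumors, 0.935 under enzalutamide and 0.668 under ARN-509. KRT14 fell (log2 -2.55 and -3.12, adjusted p = 4.56e-08 and 4.36e-10). KRT5 and TP63 had medians of 0 CPM in each arm. Their highest levels, 1.29 and 1.43 CPM, were in ARN-509 tumors, against at most 0.107 and 0.212 in vehicle tumors. The median sum of 5 endothelial markers was 4.06 CPM in vehicle tumors, 0.933 under enzalutamide and 0.943 under ARN-509. CDH5 and KDR were at 0 in 36 and 35 of the 43 libraries, and most endothelial counts came from VWF and PECAM1. VWF had medians of 3.10, 0.360 and 0.186 CPM in vehicle, enzalutamide and ARN-509 tumors. Those of PECAM1 were 0.955, 0.473 and 0.631 CPM. TEK went the other way, at 0 in 12 of 15 vehicle, 5 of 13 enzalutamide and 5 of 15 ARN-509 libraries. The part of the endothelial and basal markers in the results below was not tested. Stroma, vessels and blood of a xenograft come from the mouse, and how mouse reads were handled is not given. These sums of human marker genes therefore do not measure the amount of such host cells. Libraries vehicle 8 and vehicle 10, which in earlier results correlated least with their arm, held the highest level of 8 and the lowest level of 7 of the 10 genes among vehicle tumors, and values without them are given where a call turned on them. In bulk tumor RNA, fewer cells of a type and less RNA per cell cannot be told apart.

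The first question was which of the 10 genes differ between drug-treated and vehicle-treated tumors. FKBP5 fell under both drugs. FKBP4 and STIP1, the partner immunophilin and the HSP70 to HSP90 bridge, fell under ARN-509, HSP90AB1 did so by a small step at the edge of the threshold, and none of the 10 rose. Under enzalutamide 1 of 10 passed the test, against a background of 10.8% of all tested genes in either direction (5.67% lower and 5.10% higher). Under ARN-509 4 of 10 passed, against 30.8% (16.1% lower and 14.7% higher), so the count for ARN-509 stands on a comparison in which many genes moved. All 10 log2 differences from vehicle were negative under each drug, with medians of -0.22 and -0.30. The medians of all tested genes were -0.0040 and -0.0011, and 6887 and 6784 of the 13520 were negative. Levels of 9 of the 10 varied together between tumors (r from 0.49 to 0.91, below), so the 10 signs are not separate observations. Over all genes 689 rose and 766 fell under enzalutamide and 1988 and 2178 under ARN-509, but with library totals in place of TMM scaling 838 rose and 600 fell, and 2713 rose and 1466 fell. Both comparisons use the same vehicle libraries, so their shared direction is not independent. With scaling by library totals HSPA8 under enzalutamide turned to 0.01. Over 55 alternative settings HSPA8 under enzalutamide reached as high as 0.05, and HSP90AA1 under ARN-509 as high as 0.002. Adjusted p-values of genes are from edgeR's quasi-likelihood test with Benjamini-Hochberg adjustment over all tested genes.

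FKBP5, the androgen-inducible immunophilin, had a lowest, median and highest level of 173, 327 and 406 CPM in the 15 vehicle tumors. Under enzalutamide (n = 13) these were 142, 210 and 378 CPM. Under ARN-509 (n = 15) they were 133, 204 and 264 CPM. All 15 ARN-509 tumors and 12 of 13 enzalutamide tumors lay below the vehicle median, and 12 of 15 vehicle tumors lay above the highest ARN-509 tumor. Only 3 vehicle tumors lay above the highest enzalutamide tumor, enzalutamide 5, so those arms overlapped. The log2 fold change was -0.44 ± 0.11 (SE, adjusted p = 0.00574) under enzalutamide, 26.2% lower. For ARN-509 it was -0.59 ± 0.11 (adjusted p = 5.00e-05), 33.7% lower.

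FKBP4, the other immunophilin of the mature complex, ranged from 371 through a median of 571 to 1036 CPM in vehicle tumors. Its enzalutamide values were 378, 511 and 601 CPM, and its ARN-509 values 337, 425 and 569 CPM. The vehicle maximum was vehicle 8 and the minimum vehicle 10, and the 13 other vehicle tumors lay between 462 and 656 CPM. All 15 ARN-509 tumors were below the vehicle median, and 8 vehicle tumors were above the highest ARN-509 tumor. FKBP4 fell under ARN-509 by 0.40 ± 0.09 on the log2 scale (adjusted p = 0.000769). The enzalutamide difference of -0.25 ± 0.09 did not pass (adjusted p = 0.0740), although 12 of 13 tumors were below the vehicle median. It passed without vehicle 8 and vehicle 10 (-0.21, adjusted p = 0.0499), without vehicle 10 alone (-0.29, adjusted p = 0.0239) and without vehicle 13 alone (-0.27, adjusted p = 0.0486).

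**Figure D1:**
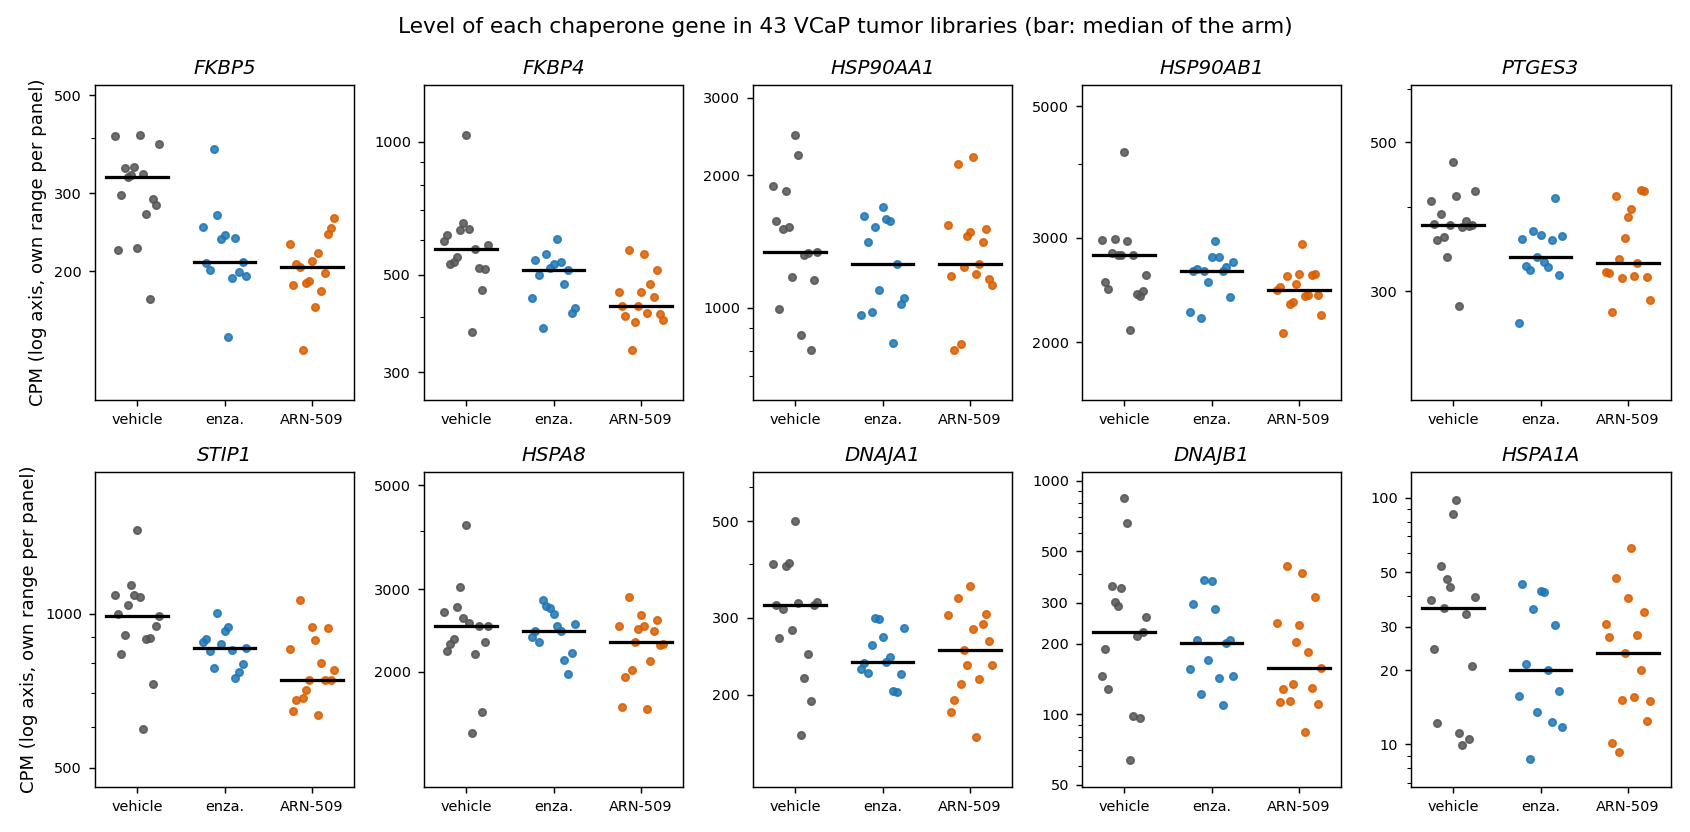
Level of each of the 10 genes in CPM (log axis, its own range in each panel) in the 15 vehicle, 13 enzalutamide and 15 ARN-509 tumors; a point is 1 tumor and a bar the median of the arm. FKBP5 sits lower in both drug arms, with medians of 210 and 204 against 327 CPM, and DNAJB1 and HSPA1A spread most within each arm.

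STIP1, the bridge between HSP70 and HSP90, was at 596, 990 and 1458 CPM (lowest, median, highest) in vehicle tumors. Under enzalutamide it was at 747, 856 and 1003 CPM and under ARN-509 at 633, 743 and 1065 CPM. It fell under ARN-509 (log2 -0.31 ± 0.08, adjusted p = 0.00403), with 14 of 15 tumors below the vehicle median and all above the lowest vehicle tumor, vehicle 10. Under enzalutamide its difference was -0.19 ± 0.09 (adjusted p = 0.162).

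The cytosolic HSP90 genes are the abundant, mostly constitutive HSP90AB1 and the stress-inducible HSP90AA1. HSP90AB1 was at 2097, 2801 and 4181 CPM in vehicle tumors. It was at 2200, 2639 and 2958 CPM under enzalutamide and at 2074, 2449 and 2931 CPM under ARN-509. Its range in both drug arms lay nearly within that of vehicle. The ARN-509 difference of -0.16 ± 0.06 stood at the threshold (adjusted p = 0.04998) and was past the threshold in 18 of 55 alternative settings. With all 44 libraries its adjusted p was 0.235, and without vehicle 8 it was 0.103. The enzalutamide difference was -0.08 ± 0.07 (adjusted p = 0.508). HSP90AA1 was at 803, 1338 and 2470 CPM in vehicle, 832, 1258 and 1693 under enzalutamide and 804, 1257 and 2204 under ARN-509. Its arms overlapped over nearly their whole range, and its differences of -0.20 ± 0.15 and -0.10 ± 0.14 did not pass (adjusted p = 0.436 and 0.606).

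PTGES3, which stabilizes the closed HSP90 dimer, had median levels of 377 CPM in vehicle, 337 under enzalutamide and 331 under ARN-509. Its lowest and highest tumors were at 286 and 468, 269 and 413, and 280 and 424 CPM. The differences of -0.15 ± 0.07 and -0.13 ± 0.06 did not pass (adjusted p = 0.143 and 0.122). After removal of any trend of a library with the GC content and length of transcripts, the ARN-509 difference was -0.22 and passed (adjusted p = 0.00486), as it did without vehicle 10 (adjusted p = 0.0462).

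Among the HSP70 proteins, HSPA8, the constitutive one, differed least. Its medians were 2501, 2447 and 2312 CPM in vehicle, enzalutamide and ARN-509 tumors. Its ranges were 1476 to 4108, 1979 to 2845 and 1667 to 2879 CPM, all overlapping. The log2 differences were -0.02 ± 0.10 (adjusted p = 0.946, 95% interval -0.21 to 0.18) and -0.12 ± 0.09 (adjusted p = 0.339, interval -0.30 to 0.07). HSPA1A, the stress-inducible HSP70, had medians of 35.8, 20.0 and 23.6 CPM, with ranges of 9.98 to 98.3, 8.74 to 44.8 and 9.30 to 62.7 CPM. Its differences of -0.64 ± 0.32 and -0.52 ± 0.31 were the largest or second largest of the 10 in size, but did not pass (adjusted p = 0.216 and 0.189), since its levels varied up to 9.86-fold among vehicle tumors. HSPA1A and HSPA1B are near-identical copies, so the split of reads between them is uncertain, and processed copies of HSPA8, HSP90AA1, HSP90AB1 and PTGES3 could likewise have taken or given reads.

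The J-domain proteins bring clients to HSP70 and speed its ATP hydrolysis. DNAJA1 was at 161, 321 and 501 CPM in vehicle tumors. It was at 202, 238 and 299 CPM under enzalutamide and at 160, 254 and 355 CPM under ARN-509. All 13 enzalutamide tumors lay below the vehicle median and 9 of 15 vehicle tumors lay above the highest of them. Its differences of -0.33 ± 0.12 and -0.29 ± 0.12 missed the threshold (adjusted p = 0.0667 and 0.0506). They passed in 6 and 15 of 55 alternative settings, among them the fit without vehicle 8 and vehicle 10 (adjusted p = 0.0415 and 0.0378), that without vehicle 10 alone (0.0197 and 0.0127) and DESeq2 (0.0472 and 0.0422). DNAJB1, the main stress-inducible partner of HSP70, ran from 63.5 through 225 to 841 CPM in vehicle, a 13.2-fold range. It ran from 109 through 202 to 377 CPM under enzalutamide and from 84.3 through 157 to 429 CPM under ARN-509. Its arms overlapped widely, and the differences of -0.39 ± 0.30 and -0.49 ± 0.29 did not pass (adjusted p = 0.460 and 0.183).

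**Figure D2:**
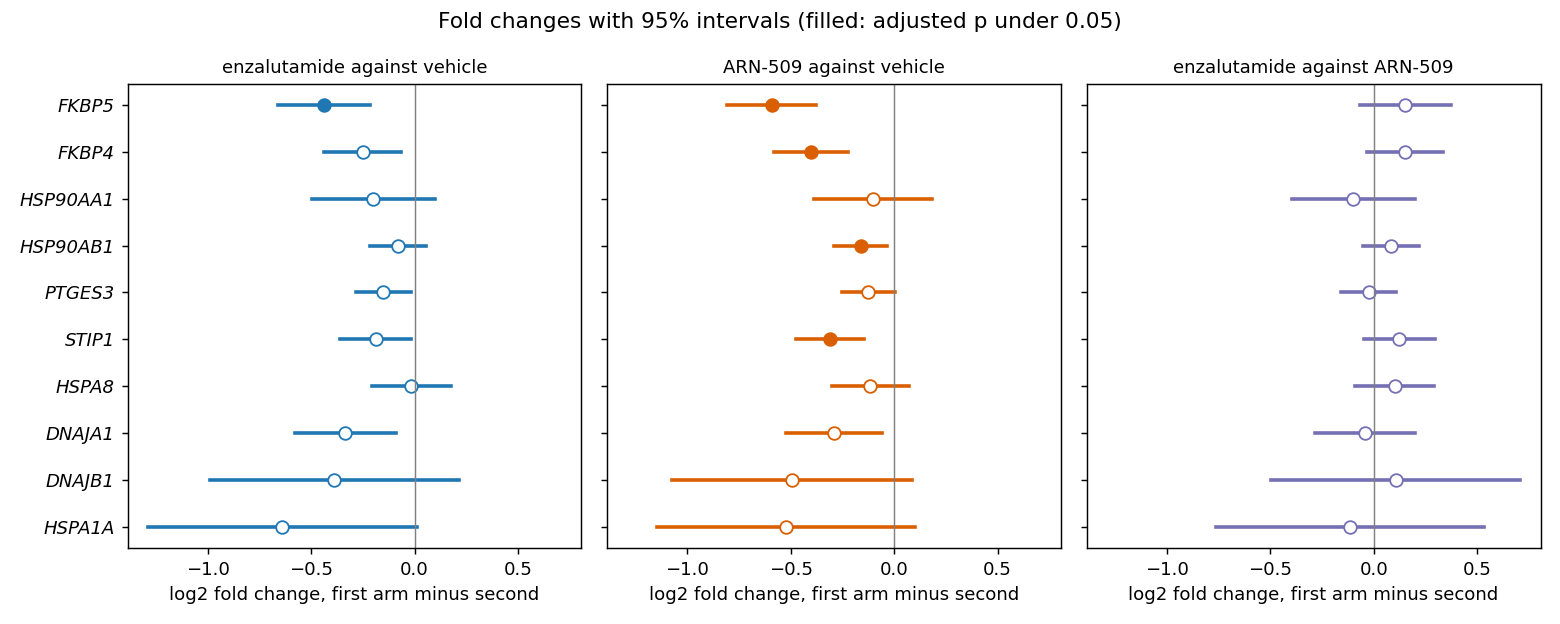
Log2 fold change (point) and 95% interval (line) of each gene for enzalutamide against vehicle, ARN-509 against vehicle and enzalutamide against ARN-509; filled points have an adjusted p under 0.05. FKBP5 is filled for both drugs, FKBP4, HSP90AB1 and STIP1 for ARN-509, and no gene is filled between the drugs.

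The drugs were given at the same dose for the same time and can be compared directly. Of the 10 genes, 0 passed between enzalutamide and ARN-509 in edgeR's test, against a background of 26.8% of all tested genes (12.2% higher and 14.6% lower under enzalutamide), and DESeq2 and limma voom also called 0. No unadjusted p was under 0.05. FKBP5 was 0.15 higher under enzalutamide on the log2 scale, with a 95% interval of -0.07 to 0.38 (adjusted p = 0.297). FKBP4 also stood 0.15 higher (interval -0.03 to 0.34, adjusted p = 0.213). STIP1 was 0.12 higher (interval -0.05 to 0.29) and HSP90AB1 0.08 higher (interval -0.05 to 0.22). PTGES3 had the narrowest interval, -0.16 to 0.11, and HSPA1A the widest, -0.76 to 0.53, so differences of that size between the compounds remain possible. That FKBP4 and STIP1 passed under ARN-509 and not under enzalutamide is therefore not a shown difference between the drugs.

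Levels of different genes can be compared only per length. As mean CPM per kilobase of transcript (± SD, n = 15) in vehicle tumors, HSP90AB1 stood highest at 1029 ± 177, followed by HSPA8 at 1006 ± 244. STIP1 (446 ± 89.8) and HSP90AA1 (435 ± 141) came next, then PTGES3 (198 ± 21.3), FKBP4 (157 ± 38.7), DNAJA1 (131 ± 37.4) and DNAJB1 (124 ± 94.6). FKBP5 was ninth at 78.4 ± 17.1 and HSPA1A last at 15.2 ± 10.6. The first pair, the second pair, the run from FKBP4 to DNAJB1, and DNAJB1 and FKBP5 differed from their neighbours by less than the larger SD. On this scale FKBP4 exceeded FKBP5 in each arm, at 157 against 78.4 in vehicle, 132 against 57.8 under enzalutamide and 119 against 52.0 under ARN-509. Together the 10 genes took a median of 0.945% of all counts in vehicle tumors, 0.872% under enzalutamide and 0.798% under ARN-509, with vehicle tumors ranging from 0.626 to 1.54%.

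The spread among tumors of 1 arm was set apart by gene. In vehicle tumors the coefficient of variation was 76.0% for DNAJB1 and 70.0% for HSPA1A, 32.5% for HSP90AA1 and 28.6% for DNAJA1, and 10.8% for PTGES3. Without vehicle 8 and vehicle 10 it was still 59.0% for DNAJB1 and 65.3% for HSPA1A, while that of FKBP4 went from 24.6 to 10.0% and that of HSP90AB1 from 17.2 to 8.46%. FKBP5 stood at 21.8% with or without them. Vehicle 8 held only 226 CPM of FKBP5, rank 13 of 15, where it held the highest level of 8 other genes.

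Over the 43 tumors these deviations were correlated among 9 of the genes, and no pair with FKBP5 passed. Pearson correlations of log2 CPM, centred on the mean of each arm, were computed over 43 tumors for all 45 pairs, with a permutation test of 100000 resamples within arms (two-sided, Benjamini-Hochberg over the 45). All 36 pairs among the 9 other genes passed, with r from 0.49 to 0.91, a median of 0.70 and a highest adjusted p of 0.00159. Spearman's rho of these pairs was 0.42 to 0.90 (highest adjusted permutation p 0.00871), and r without the 2 tumors farthest from the median of the first gene was 0.37 to 0.88. The strongest pairs were HSPA8 with DNAJA1 (0.91), STIP1 with HSPA8 (0.89) and DNAJB1 with HSPA1A (0.89), pairs of an HSP70 with its J-domain partner or bridge. FKBP4, the structural relative of FKBP5, correlated with HSP90AB1 at 0.84 and with STIP1 at 0.84. Of the 9 pairs with FKBP5, 0 passed, with r between -0.20 (HSP90AB1) and 0.16 (DNAJA1), rho between -0.11 and 0.27 and a lowest adjusted permutation p of 0.289 for r and 0.09998 for rho. The share of all pairs of tested genes with r of 0.49 or more was not computed. The correlations are therefore not shown to be particular to chaperone genes.

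**Figure D3:**
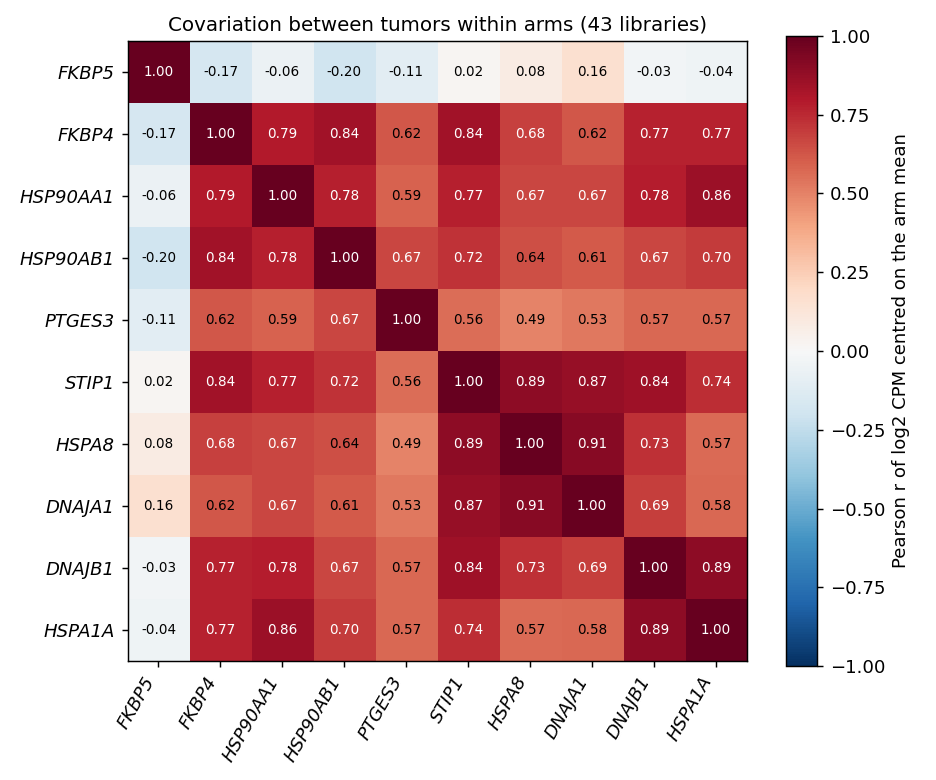
Pearson r between the 10 genes over 43 tumors, from log2 CPM centred on the mean of each arm; color and printed number give r. The 9 genes other than FKBP5 form a block of positive values from 0.49 to 0.91, and the FKBP5 row and column lie between -0.20 and 0.16.

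Within single arms the pairs of the other 9 genes ran from 0.61 to 0.96 in vehicle tumors, from 0.50 to 0.94 under ARN-509 and from -0.18 to 0.89 under enzalutamide. The FKBP5 pairs ran from -0.13 to 0.19, from -0.17 to 0.21 and, under enzalutamide, from -0.75 (with HSP90AB1) to 0.42. Without vehicle 8 and vehicle 10, 35 of the 36 pairs passed and 0 with FKBP5. The lowest permutation adjusted p with FKBP5 was then 0.0512, against 0.289 over all 43 tumors. Pairs with FKBP5 then had r from -0.07 to 0.32, against -0.20 to 0.16 over all 43, so their values leaned on these 2 libraries. In a split by depth, chosen after the data were seen, 27 pairs passed over the 21 shallower and 36 over the 22 deeper tumors. No gene of the 10 had a correlation with log2 depth that passed (r from -0.14 for PTGES3 to 0.20 for DNAJA1, lowest adjusted permutation p 0.865).

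The genes whose centred levels were most like those of DNAJB1, among 12797 tested genes averaging 1 or more log2 CPM, were HSPA1B (r = 0.97), HSPA6 (0.93), PGAM1 (0.91), FUT11 (0.90) and BHLHE40 (0.90). HSPA1B and HSPA6 are stress-inducible HSP70 genes, PGAM1 is a glycolytic enzyme, FUT11 a fucosyltransferase and BHLHE40 a transcriptional repressor. HSPA6 ranged from 2.88 to 244 CPM (median 25.5) in vehicle tumors, and its drug differences of -0.66 and -0.70 did not pass (adjusted p = 0.522 and 0.337). Of 13 tested heat shock factor targets outside the 10 genes, 10 had r over 0.5 with DNAJB1 (median 0.72, lowest DNAJB4 at 0.18). The same 13 had r between -0.34 (HSPB1) and 0.16 with FKBP5. The share of all 12797 genes with r over 0.5 with DNAJB1 was not computed, so the 10 of 13 stand without a background.

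For FKBP5 the most similar genes were STK39 (r = 0.78), LOX (0.76), F2RL1 (0.75), CUX2 (0.71) and LDLRAD3 (0.67). STK39 is a kinase of ion cotransporters, LOX the collagen crosslinking lysyl oxidase, F2RL1 a protease-activated receptor and CUX2 a homeobox factor. The centring removed the arm means, so these genes were not picked by their drug differences. LOX fell from a median of 37.2 CPM in vehicle to 11.7 under enzalutamide (log2 -1.55 ± 0.25, adjusted p = 1.88e-05) and to 10.8 under ARN-509 (-1.70 ± 0.24, adjusted p = 1.04e-06). CUX2 fell from 149 to 58.0 and 50.3 CPM (log2 -1.13 and -1.31, adjusted p = 9.71e-07 and 1.40e-08). STK39 (-0.33 and -0.38, adjusted p = 0.00203 and 0.000135) and LDLRAD3 (-0.52 and -0.44, adjusted p = 0.000157 and 0.000532) also fell under both drugs. F2RL1 fell under ARN-509 (-0.34, adjusted p = 0.00876), and its enzalutamide difference was -0.17 (adjusted p = 0.332). The log2 differences of all 5 were negative under each drug, as those of FKBP5 were. Because the 5 were picked for varying with FKBP5 and use the same vehicle libraries, their signs are not separate from its sign. Over all tested genes 5.67% were lower under enzalutamide and 16.1% under ARN-509.

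**Figure D4:**
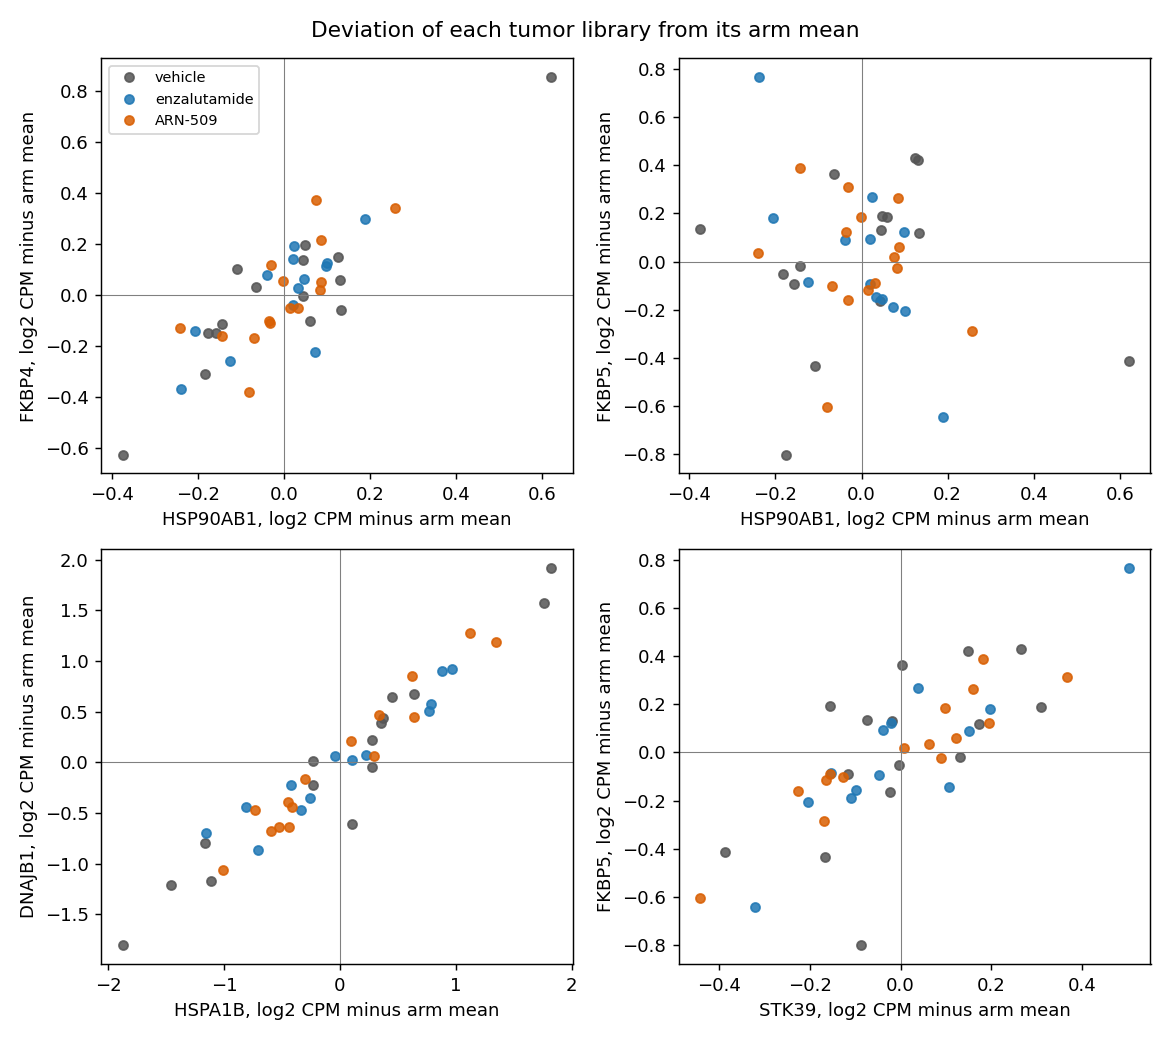
Each point is 1 of 43 tumor libraries, placed by the deviation of its log2 CPM from its arm mean for a pair of genes; color gives the arm. FKBP4 follows HSP90AB1 (r = 0.84) and DNAJB1 follows HSPA1B (r = 0.97), whereas FKBP5 does not follow HSP90AB1 (r = -0.20) and follows STK39 (r = 0.78).

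The relation of FKBP5 to other androgen-induced genes was uneven. Over 19 tested genes of that list, r with centred FKBP5 ran from -0.13 (ADAM7) to 0.59 (CAMKK2, a calmodulin-dependent kinase kinase), with a median of 0.25. Of the 19, 7 fell and 1 rose under enzalutamide, and 10 fell and 1 rose under ARN-509, with median log2 differences of -0.20 and -0.25, while 5.67% of all tested genes were lower under enzalutamide and 16.1% under ARN-509. PMEPA1, a negative regulator of TGF-beta signalling, fell by 0.68 and 0.76 (adjusted p = 5.95e-06 and 1.92e-07), and HERC3, a ubiquitin ligase, by 1.10 and 0.66 (adjusted p = 3.87e-08 and 9.63e-05). ADAM7 rose by 1.42 and 1.75 (adjusted p = 2.84e-05 and 1.92e-07) from a vehicle median of 2.75 CPM. FKBP5 is also a classic glucocorticoid target, and of 8 such genes KLF9 rose under both drugs (1.18 and 1.32, adjusted p = 7.82e-05 and 4.40e-06). TSC22D3, also called GILZ, rose under ARN-509 (0.52, adjusted p = 0.000746) with 0.33 under enzalutamide (adjusted p = 0.0638), and CEBPD fell under ARN-509 (-0.40, adjusted p = 0.0245). The TSC22D3 difference under enzalutamide passed with library totals (0.36, adjusted p = 0.0448), with the replicate block (0.0466) and with limma voom (0.0419). The CEBPD call was lost without vehicle 8 and vehicle 10 (-0.35, adjusted p = 0.0580), without vehicle 8 alone (0.0510) and with the trend with GC content and length removed (-0.21, adjusted p = 0.174). Of the 8, 1 rose and 0 fell under enzalutamide, and 2 rose and 2 fell under ARN-509, the median being -0.02 and -0.01. Over all tested genes 5.10% were higher and 5.67% lower under enzalutamide, and 14.7% and 16.1% under ARN-509. With only 8 genes, these counts are not read as a result about the list.

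Of the steroid receptors that these chaperones serve, NR3C1 and NR3C2 had positive differences under both drugs, and each passed under 1, with calls that moved with the settings. The glucocorticoid receptor NR3C1, at a median of 6.25 CPM in vehicle, rose under ARN-509 (0.62, adjusted p = 0.0155) with 0.33 under enzalutamide (adjusted p = 0.341). Its ARN-509 call was lost with the GC content and length trend removed (0.47, adjusted p = 0.0535) and with all 44 libraries (0.0875). The mineralocorticoid receptor NR3C2 rose under enzalutamide (0.70, adjusted p = 0.0387) with 0.52 under ARN-509 (adjusted p = 0.0677). The NR3C2 enzalutamide call was lost with only the 2 arms compared (adjusted p = 0.0851), with no filter on low counts (0.0598) and in 15 of the 43 fits that leave out 1 library (0.0526 to 0.0983). Under ARN-509 NR3C2 passed without vehicle 8 and vehicle 10 (0.65, adjusted p = 0.0213), with library totals (0.0468), with the replicate block (0.0279) and with limma voom (0.83, adjusted p = 0.000616). PGR, ESR1 and ESR2 did not pass the filter on low counts.

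**Figure D5:**
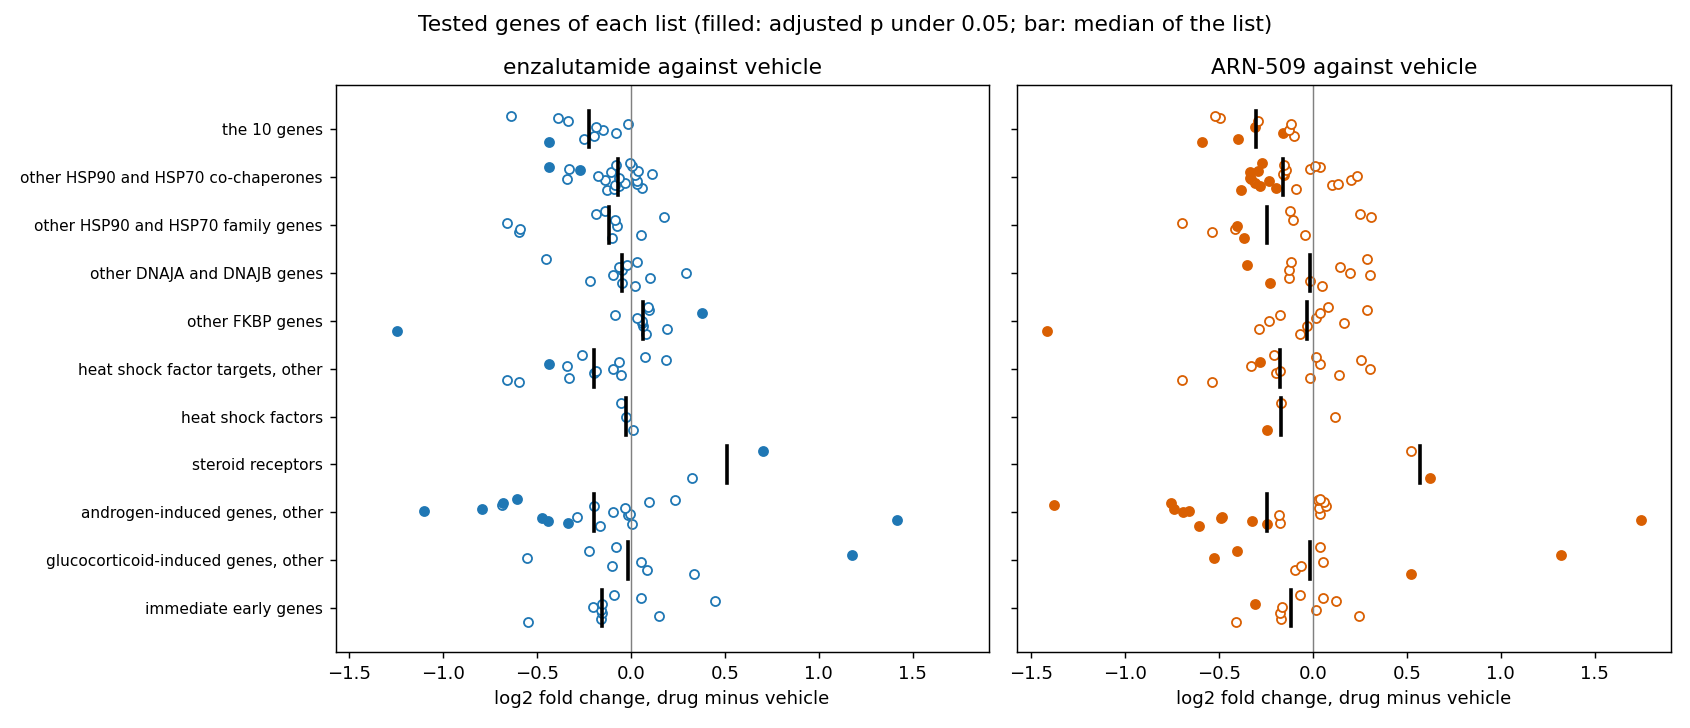
Log2 fold change of each tested gene of 11 lists against vehicle, enzalutamide on the left and ARN-509 on the right; filled points have an adjusted p under 0.05 and the bar is the median of the list. The 10 chaperone genes have medians of -0.22 and -0.30, and the other co-chaperones have 10 of 22 genes filled, all lower, under ARN-509.

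Other genes of the same machinery were read from lists. Of 22 tested co-chaperones of HSP90 and HSP70, 0 rose and 2 fell under enzalutamide (median -0.07), and 0 rose and 10 fell under ARN-509 (median -0.16). Over all tested genes 5.67% were lower under enzalutamide and 16.1% under ARN-509. PPP5C, the phosphatase of the HSP90 complex, fell under ARN-509 by 0.38 ± 0.06 (adjusted p = 3.33e-06), SGTA, known to restrain androgen signalling, by 0.33 (adjusted p = 0.00181) and AHSA1, the activator of HSP90 ATPase, by 0.28 (adjusted p = 0.00552). Their enzalutamide differences were -0.13, -0.06 and -0.06 and did not pass, but that of PPP5C was -0.18 and passed (adjusted p = 0.00303) with the trend with GC content and length removed. With all 44 libraries AHSA1 lost its ARN-509 call (adjusted p = 0.203). Between the drugs 9 of the 22 were higher and 3 lower under enzalutamide, against 12.2% and 14.6% of all tested genes, PPP5C by 0.25 (adjusted p = 0.00492), SGTA by 0.27 (0.0170) and AHSA1 by 0.22 (0.0370). AHSA1 lost that call in 10 of the 43 fits that leave out 1 library (adjusted p = 0.0518 to 0.0658). With the same trend removed these 3 differences between the drugs were 0.11, 0.08 and 0.14 and did not pass (adjusted p = 0.0937, 0.317 and 0.194), while the number of all genes called between the drugs went from 3623 to 970.

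Of 10 other HSP90 and HSP70 genes, 0 passed under enzalutamide and 2 fell under ARN-509. HSP90B1 (GRP94) fell by 0.36 (adjusted p = 0.00302) and HSPA5 (BiP) by 0.41 (adjusted p = 0.0202), a call that HSPA5 lost without vehicle 8 (-0.33, adjusted p = 0.0548). Of 11 other J-domain genes, 0 passed under enzalutamide and 2 fell under ARN-509, DNAJA3 (-0.23, adjusted p = 0.00199) and DNAJB11 (-0.35, adjusted p = 0.00532). Both counts lie near the 16.1% of all tested genes that were lower under ARN-509. DNAJB14 was at -0.45 under enzalutamide (adjusted p = 0.0568). That difference passed with DESeq2 (0.0391), limma voom (0.0313) and the GC content and length trend removed (0.0182). Under ARN-509 DNAJB14 was at 0.29 (adjusted p = 0.134), and passed with limma voom (0.0419) and without vehicle 10 (0.0347). For enzalutamide against ARN-509 it was at -0.74 (adjusted p = 0.00311). Of 11 other FKBP genes FKBP1B, a regulator of ryanodine receptors, fell under both drugs (-1.24 and -1.42, adjusted p = 0.000118 and 5.78e-06) from a vehicle median of 2.89 CPM. FKBP11 rose under enzalutamide (0.38, adjusted p = 0.00114), with 0.04 under ARN-509 (adjusted p = 0.733), or 0.17 (adjusted p = 0.0358) with the GC content and length trend removed. The remaining 9 passed in neither comparison, though FKBP10 passed under ARN-509 with DESeq2 (-0.18, adjusted p = 0.0403) and with limma voom (-0.16, adjusted p = 0.0190).

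The heat shock factors and their targets are few genes, read beside the 10.8% of all tested genes that passed under enzalutamide and the 30.8% under ARN-509. Of HSF1, HSF2 and HSF4, HSF1 fell under ARN-509 (-0.24, adjusted p = 0.0293) and was at 0.01 under enzalutamide (adjusted p = 0.957). With the trend with GC content and length removed the HSF1 value under ARN-509 was -0.08 (adjusted p = 0.245), and without vehicle 8 and vehicle 10 it was -0.19 (adjusted p = 0.0541). The HSF1 call was also lost with library totals (0.0756) and without vehicle 7, vehicle 8 or ARN-509 12 (0.0515 to 0.0717). Of 13 heat shock factor targets 1 fell under each drug, CHORDC1 under enzalutamide (-0.44, adjusted p = 0.0447) and AHSA1 under ARN-509, with medians of -0.20 and -0.18. The CHORDC1 call was lost with library totals (adjusted p = 0.0590), with no filter on low counts (0.0662), with the replicate block (0.115) and in 14 of the 43 fits that leave out 1 library (0.0541 to 0.117). Of 10 immediate early genes, which respond within minutes to handling of tissue, 0 passed under enzalutamide and IER2 was at -0.31 under ARN-509 with an adjusted p of 0.0430. That IER2 call was lost in 6 alternatives (adjusted p = 0.0516 to 0.149), among them the fit without vehicle 8 and vehicle 10 (0.0527), and in 15 of the 43 fits that leave out 1 library. FOS was at -0.55 and -0.41 (adjusted p = 0.261 and 0.278).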

How the data were processed

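RNA of 44 VCaP xenografts was sequenced after preparation with TruSeq RNA v2, a kit without strand information, per the labels' protocols. The authors deposited unnormalized counts for each gene symbol and tumor. The submitters' processing notes name TopHat2 2.1.0, HTSeq 0.6.1, Picard 1.77 and bcl2fastq 1.8.4 with the hg19 build. How mouse reads were handled, the annotation, parameters and strand setting are not given in the sources, so mouse reads may stand in human counts, and overlapping or near-identical genes are uncertain.

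Columns were matched to samples by their descriptions (0 unmatched). No 2 libraries of an arm were identical (lowest chi-square per degree of freedom 3.27), and their replicate numbers did not pair them. Counts of 43 libraries, without enzalutamide 4, passed filterByExpr and TMM and were fitted in edgeR 4.0.16 (R 4.3.3) with the quasi-likelihood test, all 3 arms in 1 fit, a threshold of 0.05 and 95% intervals. The script was tested on simulated counts. Levels are CPM after TMM scaling, marker sums CPM of the library total, and centred values log2 CPM with a prior count of 2. Transcript lengths came from GENCODE v29 and promoters from RefSeq (GRCh38.p14). Alternatives used DESeq2 1.42.0 and limma 3.58.1. Lists were read as counts and medians, without 2 genes that are not reported here, and correlations were tested by permutation.

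Genes named are the 10, at most 3 per list with the smallest p in either comparison with vehicle, and the 5 most like FKBP5 and DNAJB1. CAMKK2, HSPB1, DNAJB4 and the markers were named after their values were seen. The 10 genes, lists, tests and this rule were chosen with earlier results of these data known. Nothing in the sources says more about tumors than 1 library per mouse. The p-values therefore rest on the spread between these libraries, in which tumor and library preparation cannot be told apart.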

Additional observations from a re-analysis of the deposited data

How the results depend on the processing

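In all 55 refits of the counts, which do not include a minimum fold change, FKBP5 kept its calls under both drugs (log2 -0.52 to -0.39 under enzalutamide and -0.69 to -0.54 under ARN-509), and FKBP4 (-0.44 to -0.33) and STIP1 (-0.35 to -0.25) kept theirs under ARN-509. HSP90AB1 lost its ARN-509 call in 37 of the 55. The members called under enzalutamide numbered 3 without vehicle 8 and vehicle 10, 2 with DESeq2, 3 with limma voom and 0 with a minimum change of 1.5-fold, which ended the call of FKBP5. Under ARN-509 that minimum left 1, FKBP5, and ended those of FKBP4, STIP1 and HSP90AB1. Other settings added members under ARN-509. With the GC content and length trend removed, PTGES3 and DNAJA1 passed edgeR's test (adjusted p = 0.00486 and 0.00978). DNAJA1 also passed with DESeq2 (0.0422) and without vehicle 8 and vehicle 10 (0.0378). The member calls without vehicle 8 and vehicle 10, with DESeq2 and with the trend removed were not set against a share of all genes. Over all genes, limma voom called 2551 for enzalutamide against vehicle and 5718 between the drugs. The 1.5-fold minimum left 501 for enzalutamide and 685 for ARN-509 against vehicle, and 242 between the drugs, and removal of the GC content and length trend left 970 between the drugs. For the tools and the trend removal the cause was not tested. Leaving out each of the 43 libraries in turn gave 1 to 3 members called under enzalutamide (3 without vehicle 10 or vehicle 13), 3 to 6 under ARN-509 (6 without vehicle 10) and 0 between the drugs, and 1145 to 1794, 3261 to 5045 and 2680 to 4269 genes. With the replicate number as a block, 1, 4 and 0 members and 1197, 4084 and 3290 genes were called, and the block moved HSP90AB1 (adjusted p = 0.0527) and DNAJA1 (adjusted p = 0.0343) across the threshold under ARN-509. The numbers did not pair the libraries: 12 of 41 same-numbered pairs had correlated deviations over 0.1, and 4 of 43 libraries correlated best with their own number. With all 44 libraries FKBP5 kept both calls. Among the 45 pairs of genes, 27 to 36 passed in the alternatives, and 0 with FKBP5. Depth limits HSPA1A most, at 34 to 1166 counts per ARN-509 library.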
